A study of Drosophila melanogaster with 9 samples.

Results

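Wild-type stage 10 follicles were compared with wild-type stage 8 follicles of Drosophila melanogaster, gene by gene, with attention to genes outside the eggshell. The comparison takes 6 of the 9 libraries in the series, chosen by the stage and genotype in their labels, 3 of stage 10 and 3 of stage 8. Each library was made from poly(A)-selected RNA of 100 hand-dissected follicles of Oregon R females, and the submitters' protocols call these females fertilized. The females were 6 to 14 days old by the labels, although the protocol for growth starts at 4 days. Flies were kept at 25 °C with optimal nutrition for the last 36 hours. The other 3 libraries are stage 10 follicles of females with a temperature-sensitive EcR mutation (EcRts), shifted, 2 days after the adults emerged, to the temperature that inactivates the receptor. They entered the fit to share its estimate of spread. They also counted in the filter that chose the tested genes and in the rescalings used below. Their levels are not described here. The labels do not say whether the samples of a stage came from separate animals or cultures, so the p-values cover only variation among these libraries, which may be technical.

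A follicle, or egg chamber, is a cyst of germline cells, the oocyte and its sister nurse cells, wrapped in an epithelium of somatic follicle cells. At stage 8 the oocyte has started to take up yolk and the follicle cells have left the mitotic cycle for the endocycle under Notch signalling. By stage 10 most follicle cells cover the oocyte and secrete the eggshell, and the nurse cells load the oocyte with the messenger RNAs and proteins that the embryo will use before its own genome is active.

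Values are FPKM, fragments scaled to transcript length and library size, so levels are per length. Changes are differences of mean log2(FPKM + 1), stage 10 minus stage 8, with the standard error (SE) of the fit, and this scale understates changes of genes near 1 FPKM. A gene rose or fell when its limma p, adjusted by Benjamini-Hochberg over all 8340 tested genes, was under 0.05. Group values are mean ± SD over 3 libraries. Depth, as implied by the confidence limits in the files, was 17.5 to 21.3 M fragments at stage 10, against 18.6 to 21.7 M at stage 8. Part of the summed FPKM came from entries on heterochromatic or unplaced sequence that were noncoding or had no gene type in the reference. Their share was 9.6% to 11.3% at stage 10, against 17.7% to 21.9% at stage 8. The median change over the tested genes was 0.20 as deposited. It was −0.01 when libraries were scaled by median-of-ratios or quantile normalized. Scaling to the protein-coding sum gave 0.14, and scaling to the sum outside eggshell and yolk genes gave 0.36. The part of the noncoding share in this shift was not tested. Because the scale moves calls near that shift, a gene is said below to hold under every scaling when it kept its call as deposited and under 4 rescalings. Send1, a gene of the spermatheca, stood apart in 1 library, with 11.5 FPKM in stage 10 replicate 1 and at most 0.209 in the others.

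As deposited, 4105 genes were higher at stage 10 (49.2% of those tested) and 1577 lower (18.9%). Under every scaling 2452 held as higher (29.4%) and 956 as lower (11.5%). A change of at least 2-fold was seen as deposited for 598 higher (7.17%) and 194 lower genes (2.33%), of which 586 (7.03%) and 182 (2.18%) held under every scaling. The eggshell list accounted for 25 of the 598 higher genes, and these were 25 of its 30 tested members. Of the 194 lower genes, 94 were not protein-coding, against 45 of the 598 higher genes. Of all 8340 tested genes, 7361 were protein-coding. The 94 include short snoRNA and microRNA entries, such as mir-1011, at 0 in every stage 10 library and 1594, 1513 and 3528 FPKM at stage 8. How well poly(A)-selected libraries measure such entries was not tested. The change was thus spread over many genes. A list of 30 could hold only a small part of the 598 large rises, which also include repeated histone copies.

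**Figure D1:**
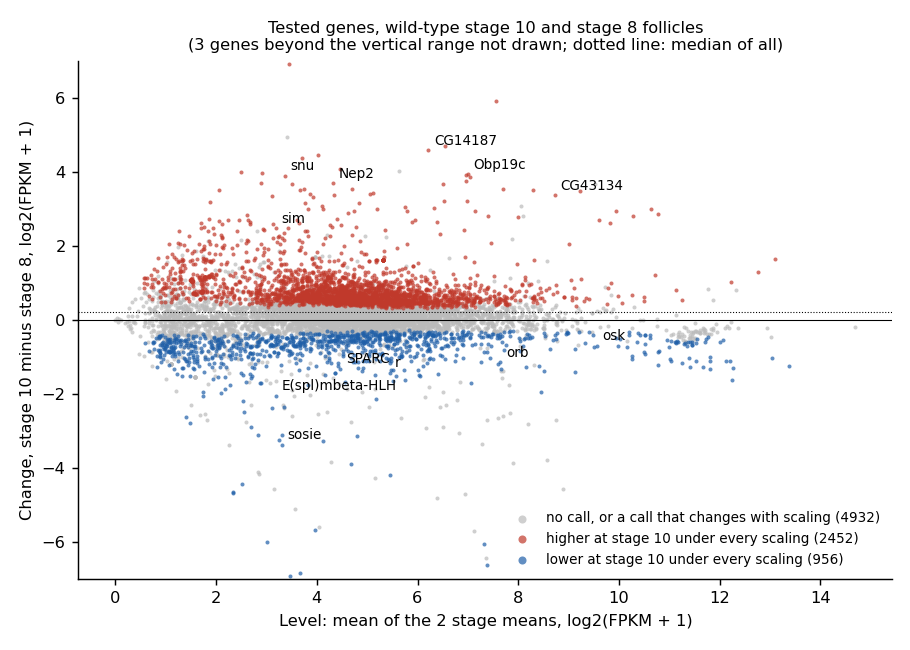
Change between the stages (vertical axis, log2(FPKM + 1), stage 10 minus stage 8) against level (horizontal axis, mean of both stage means on the same scale) for the tested genes, with 3 genes beyond the vertical range not drawn. Red and blue points, 2452 and 956 genes, held as higher and lower at stage 10 under every scaling, and the dotted line marks the median change of 0.20.

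The large changes were unequal over the range of expression. Of the 948 tested genes with a mean level under 3 FPKM, 12.6% rose and 3.59% fell at least 2-fold. Repeated histone copies are among these risers, such as His2B:CG33906, with a mean of 3.18 FPKM at stage 10 and 1 FPKM at stage 8. Their part in the 12.6% was not tested. A gene was tested when it reached 1 FPKM in any 3 libraries, so low genes could enter through the stage where they were higher. The part of this filter in both shares was not tested either. Of the 147 genes at 1000 FPKM or more, 7.48% rose and 12.2% fell at least 2-fold. Counting changes of any size as deposited, 21 of these 147 rose and 115 fell, with a median change of −0.41. Among protein-coding genes, the 553 that rose at least 2-fold had a median transcript length of 1512 bases, against 1995 bases for all 7361 tested. Genes without introns made up 25.9% of those risers and 11% of all tested. The 100 protein-coding genes that fell at least 2-fold had a median length of 1890.5 bases, and 17% lacked introns. Counted with every histone copy, large risers were thus shorter genes with fewer introns than all tested genes, given as a description with no test. They include many repeated His1, His2A and His2B copies on 2L, such as His2A:CG33808 (21433862 to 21434430). These copies were not left out here, and their part in the length and intron values was not tested.

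The most abundant messages were largely shared. Of the 100 protein-coding genes with the highest FPKM at each stage, 88 were the same. The 12 found only among the stage 10 leaders held 6 eggshell genes, and outside that list they included Act5C, a cytoplasmic actin, me31B, an RNA helicase that represses maternal messages, and the small heat shock gene Hsp26. The 12 found only at stage 8 held 5 ribosomal protein genes and the elongation factor gene eEF1gamma (Ef1gamma). Hsp26 had 2426, 2743 and 2391 FPKM at stage 10, against 1136, 812 and 1389.6 FPKM at stage 8, a change of 1.21 (adjusted p = 0.00035). For eEF1gamma the values were 1261, 1164 and 1102 FPKM at stage 10, against 1784, 1796 and 1895 FPKM at stage 8, a change of −0.64 (adjusted p = 3.65e-05). Neither gene's stages overlapped.

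Outside the eggshell list, the 25 leading rises ran from 3.07 to 4.59 on the log2 scale. In the files 18 of the 25 carry only a CG number, against 47.3% of all tested protein-coding genes and 44.3% of those that rose at least 2-fold. CG14187 (FBgn0036938, 3L, 20105365 to 20105947 in dm3) led with 316, 409.9 and 349 FPKM at stage 10, against 17.4, 17.2 and 8.64 FPKM at stage 8. Its change was 4.59 ± 0.26 SE (adjusted p = 5.61e-06). CG43134 (FBgn0262608, X, 4141346 to 4141818) reached the highest level of the 25, with 1551, 1209 and 1244 FPKM at stage 10, against 155, 168 and 79.1 FPKM at stage 8, a change of 3.37 ± 0.26 SE. It was among the 100 most abundant protein-coding genes at stage 10 and not at stage 8. It lies in a run of 6 neighbouring tested genes that rose at least 2-fold, 2 of them in the eggshell list. CG14834 had 337, 287 and 314 FPKM at stage 10, against 37, 23.1 and 15.4 FPKM at stage 8. In each of these 3 unnamed genes every stage 10 library stood well above every stage 8 library.

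Also among the leading rises were amd, drd and pncr008:3L. amd (FBgn0000075, 2L, 19110159 to 19114110) encodes a relative of dopa decarboxylase that acts in cuticle formation. It had 36.5, 40.9 and 39.4 FPKM at stage 10, against 2.16, 3.32 and 1.31 FPKM at stage 8, a change of 3.66 ± 0.23 SE (adjusted p = 7.93e-06). drd, the drop-dead gene, which is known to be needed for a sound vitelline membrane, had 45.5, 56.5 and 43.6 FPKM at stage 10, against 7.12, 4.23 and 3.73 FPKM at stage 8. Its change was 3.07 ± 0.20 SE. pncr008:3L, now listed as protein-coding under CG33946, had 48.4, 44.8 and 44.7 FPKM at stage 10, against 3.9, 2.35 and 4.31 FPKM at stage 8. In all 3 genes the stages were far apart relative to the spread within a stage.

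A further set of leading rises is known from other tissues. fit, a female-biased gene of the fat body, had 12.9, 8.57 and 18.1 FPKM at stage 10, against 0, 0 and 0.67 FPKM at stage 8, a change of 3.52 ± 0.85 SE (adjusted p = 0.00616). IM33 (CG16712), an immune-induced secreted protein, had 20, 17.4 and 38.3 FPKM at stage 10, against 0, 1.42 and 1.93 FPKM at stage 8. CG6503 had 10.3, 6.52 and 13.8 FPKM at stage 10, against 0, 0 and 0.643 FPKM at stage 8. In these genes stage 10 replicate 3 was the highest library and replicate 2 the lowest.
The fat body marker list moved with them, with a summed level of 8.03 to 15.6 FPKM at stage 10, against 2.57 to 3.8 FPKM at stage 8. Nearly all of it was apolpp (Rfabg), the precursor of the circulating lipoprotein, at 7.28, 6.82 and 14.2 FPKM at stage 10, against 2.9, 2.5 and 3.68 FPKM at stage 8. Its change of 1.32 had an adjusted p of 0.0164, which was 0.0559 without stage 10 replicate 3 and 0.0508 without stage 8 replicate 2. The list's other genes Lsp2, Fbp1 and Lsp1beta stayed under 1 FPKM in all 6 libraries. Within that range Lsp1beta had 0.788, 0.914 and 0.929 FPKM at stage 10, against 0.0165, 0.0156 and 0.128 FPKM at stage 8. Lsp2 had 0.699, 0.289 and 0.488 FPKM at stage 10, against 0.0565, 0.0537 and 0 FPKM at stage 8. Fbp1 was at 0 in every stage 10 library and at most 0.0124 FPKM at stage 8. The part of fat body RNA in these rises was not tested.

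The 25 leading falls ran from −3.37 to −1.27. sosie (CG13636, FBgn0039232, 3R, 20659676 to 20666217), a membrane protein gene needed to organize the follicle epithelium, had 2.51, 2.61 and 1.13 FPKM at stage 10, against 23.4, 34.2 and 33.8 FPKM at stage 8. r, the rudimentary gene (FBgn0003189, X, 16549412 to 16563110), encodes the enzyme that starts pyrimidine synthesis. It had 28.5, 25.1 and 22.9 FPKM at stage 10, against 64.1, 77.3 and 70.2 FPKM at stage 8, a change of −1.43 ± 0.09 SE (adjusted p = 7.11e-06). Both genes fell in every stage 10 library.
Non1 (CG8801, FBgn0028473, 2R, 5283865 to 5286255), a nucleolar GTPase gene of ribosome biogenesis, was the most abundant of the 25. Its values were 189.9, 177 and 175 FPKM at stage 10, against 382, 517 and 426 FPKM at stage 8, a change of −1.27 ± 0.10 SE (adjusted p = 2.29e-05). Mipp1, a multiple inositol polyphosphate phosphatase gene, had 9.31, 7.54 and 7.22 FPKM at stage 10, against 20.8, 25 and 18.3 FPKM at stage 8. laza, a lipid phosphate phosphatase gene known from photoreceptors, had 2.71, 2.12 and 2.37 FPKM at stage 10, against 9.48, 10.4 and 9.52 FPKM at stage 8. None of these had overlapping stages. Acp98AB, a male accessory gland gene, was listed at 0 in every stage 10 library and at 2.59, 12.3 and 5.74 FPKM at stage 8, with Acp70A at 0 and Acp26Aa and Acp36DE under 1 FPKM throughout.

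Gene lists written from general knowledge of fly biology gave different balances of rises and falls. The shares that held under every scaling are set below against 29.4% higher and 11.5% lower for all tested genes. In bulk RNA of whole follicles, fewer cells of a type and less RNA per cell cannot be told apart. Levels of the marker lists also differed between the stages. Summed follicle cell markers had 73.6 to 86.4 FPKM at stage 10, against 110.4 to 118 FPKM at stage 8, while summed germline markers had 732 to 813 FPKM at stage 10, against 777 to 835 FPKM at stage 8. The follicle cell sum was thus lower in every stage 10 library and the germline sums overlapped, but members of both lists went both ways. Of 6 follicle cell markers 5 fell and Fas3 rose as deposited. Of 6 germline markers vas, nos, otu and bam rose, and orb and aub fell. The muscle sheath sum was 269 to 281 FPKM at stage 10, against 179 to 184 FPKM at stage 8. Nearly all of it was Tm1, a tropomyosin gene, and Mhc, the muscle myosin heavy chain gene, stayed under 1 FPKM in all 6 libraries. The part of follicle cell or muscle RNA in the changes below was not tested.

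**Figure D2:**
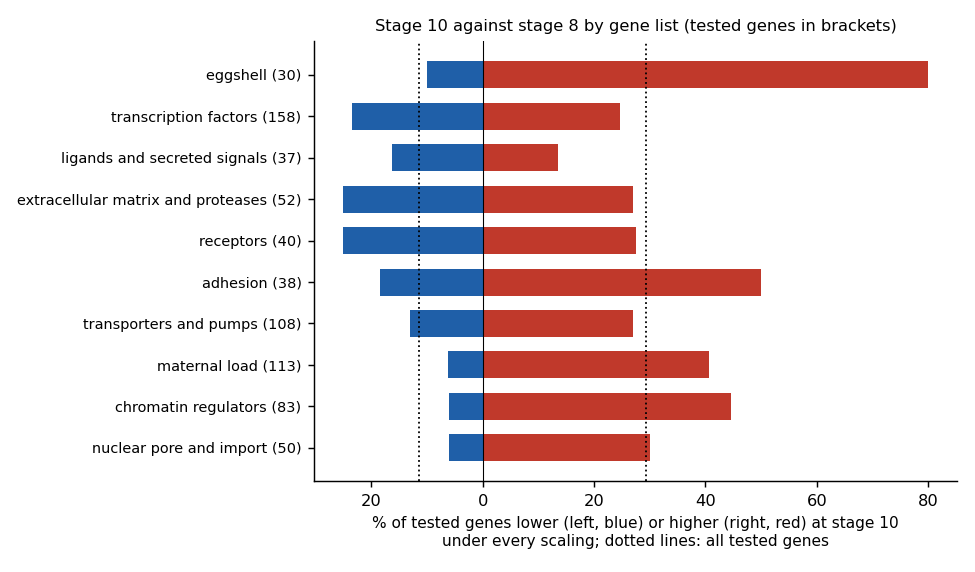
Share of each list's tested genes (number in brackets) that held under every scaling as lower (blue, to the left) or higher (red, to the right) at stage 10, with dotted lines at 11.5% and 29.4% for all 8340 tested genes. Maternal load (40.7%), chromatin regulators (44.6%) and adhesion (50%) extend past the line for higher genes, and transcription factors (23.4%), matrix (25%), receptors (25%), adhesion (18.4%), ligands (16.2%) and transporters (13%) past the line for lower ones.

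Transcription factor genes moved both ways. Of 158 tested, 64 rose and 50 fell as deposited, and 39 (24.7%) and 37 (23.4%) held under every scaling. The median change was 0.07, against 0.20 for all tested genes. The list's share of protein-coding FPKM was 0.699% ± 0.0277 at stage 10 and 0.686% ± 0.0228 at stage 8, overlapping between the stages (exact permutation p = 0.5, two-sided, n = 3 each). The difference of 0.0131 percentage points depended on the denominator and on single libraries. It was 0.0876 as a share of all listed genes (exact permutation p = 0.1, the smallest that 3 against 3 libraries allow), and −0.00279 without stage 10 replicate 2.

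The largest rise in the list was that of sim (FBgn0004666, 3R, 8883481 to 8903950), a bHLH-PAS factor known as the master regulator of the nervous system midline. It had 17.1, 22.1 and 21.1 FPKM at stage 10, against 2.97, 3.88 and 1.83 FPKM at stage 8, a change of 2.47 ± 0.19 SE (adjusted p = 1.61e-05). tgo, the partner with which sim binds DNA, had 42.5, 45.4 and 39.9 FPKM at stage 10, against 28.1, 25 and 26.4 FPKM at stage 8, a change of 0.67 ± 0.06 SE. Both partners were higher in every stage 10 library, tgo by less than sim.
dati (Lin29 in the files, FBgn0262636, chromosome 4, 396266 to 416428), a zinc finger gene, had 8.8, 7.59 and 8.28 FPKM at stage 10, against 1.88, 0.619 and 0.656 FPKM at stage 8. Eip74EF, an Ets factor of the ecdysone cascade, had 10.4, 11.1 and 12 FPKM at stage 10, against 3.01, 2.95 and 2.54 FPKM at stage 8. Their changes were 2.22 ± 0.24 SE and 1.67 ± 0.08 SE. srp (FBgn0003507, 3R, 11811923 to 11829803), a GATA factor of blood cells and fat body, had 22.1, 17.2 and 23.3 FPKM at stage 10, against 6.82, 6.57 and 6.24 FPKM at stage 8. The other hemocyte markers did not move with it: Hml and nimC1 stayed under 1 FPKM and He was listed at 0 in all 6 libraries.

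Other genes of DNA-binding proteins rose by less. Nf-YA, a subunit of the CCAAT-binding factor, had 27.1, 27.9 and 24.4 FPKM at stage 10, against 13.3, 11.8 and 12.1 FPKM at stage 8. Its partner Nf-YB changed by 0.70 ± 0.13 SE and Nf-YC by −0.00 ± 0.09 SE (adjusted p = 0.986), so the 3 subunits did not shift alike. pho, which brings Polycomb complexes to DNA, had 74.6, 73.5 and 89.9 FPKM at stage 10, against 36.8, 40.3 and 38.6 FPKM at stage 8. Its relative phol rose by 0.80, and the insulator proteins su(Hw), BEAF-32 and CTCF rose by 0.91, 0.61 and 0.59. All 5 of this last group held under every scaling, though the grouping was made after their values were seen.

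bHLH repressor genes led the falls. The Notch target E(spl)mbeta-HLH (HLHmbeta) had 3.64, 3.56 and 3.17 FPKM at stage 10, against 15.4, 23.1 and 14.9 FPKM at stage 8, and E(spl)m3-HLH (HLHm3) had 2.75, 1.31 and 3.43 FPKM at stage 10, against 6.97, 10.6 and 8.48 FPKM at stage 8. Their changes were −2.05 ± 0.17 SE and −1.50 ± 0.25 SE. Hesr (Her in the files), a related bHLH repressor, had 1.13, 0.797 and 1.52 FPKM at stage 10, against 10.1, 5.68 and 6.84 FPKM at stage 8. Hesr overlaps Frq2, and because no strand setting is given, reads of overlapping genes cannot be told apart. The stages did not overlap in any of the 3.
The homeobox gene Six4 had 14.9, 11.2 and 12.7 FPKM at stage 10, against 32.4, 30.5 and 33 FPKM at stage 8, and eya, which codes for a partner of such homeobox proteins, fell with it by 0.98 on the log2 scale. Lime (CG18446), a zinc finger gene, had 29.8, 28 and 27.1 FPKM at stage 10, against 60.8, 65.5 and 67.3 FPKM at stage 8, a change of −1.16 ± 0.06 SE. tj, a Maf factor of the follicle cells and 1 of the follicle cell markers above, fell to 46, 38.3 and 42.3 FPKM at stage 10, against 75.5, 73 and 74.5 FPKM at stage 8. These falls were larger than the spread within either stage.

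Further falls lay outside the 5 largest of the list and are named after their values were seen. Kr-h1, which responds to juvenile hormone, had 4.49, 2.45 and 3.64 FPKM at stage 10, against 8.16, 11.8 and 7.82 FPKM at stage 8. gce, a juvenile hormone receptor, had 2.63, 2.18 and 2.44 FPKM at stage 10, against 6.35, 6.55 and 5.31 FPKM at stage 8. Their changes were −1.19 and −1.05, and the second receptor, Met, changed by −0.30, with a call that did not hold under every scaling. Of 5 circadian clock factors, vri (−0.92), Pdp1 (−0.74), cwo (−0.67) and Clk (−0.55) fell and cyc rose by 0.47, each holding under every scaling. Myc (dm), the growth regulator, had 57.2, 58 and 57.9 FPKM at stage 10, against 83.1, 105 and 91.6 FPKM at stage 8, a change of −0.68 ± 0.08 SE.

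**Figure D3:**
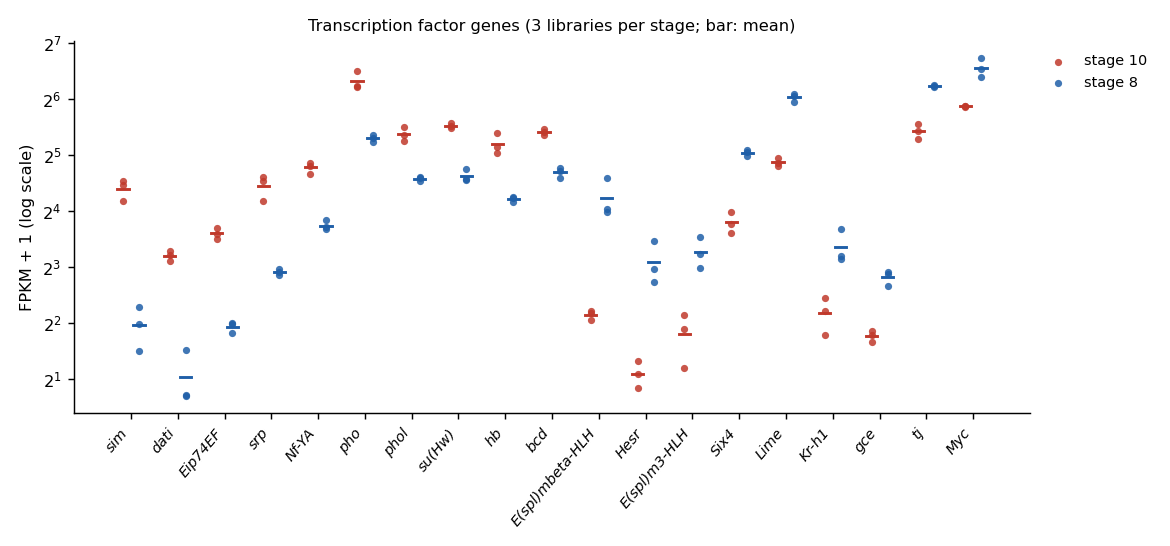
FPKM + 1 on a log scale for named transcription factor genes, with 1 point per library, 3 libraries per stage and a bar at the mean, stage 10 in red to the left of stage 8 in blue. Genes from sim to bcd were higher in every stage 10 library, and genes from E(spl)mbeta-HLH to Myc were lower in every stage 10 library.

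Genes of secreted and extracellular proteins took a larger share of protein-coding FPKM at stage 10, 0.548% ± 0.0152, against 0.384% ± 0.0132 at stage 8. The stages did not overlap, and the exact two-sided permutation p of 0.1 is the smallest that 3 against 3 libraries allow. Single abundant genes of the class rose, such as Obp19c and Jhbp5 below, but their part in this share was not tested. Of 52 tested matrix and protease genes 18 rose and 15 fell as deposited, and 14 (26.9%) and 13 (25%) held under every scaling. Of 37 ligands and secreted signals 8 rose and 13 fell, and 5 (13.5%) and 6 (16.2%) held.

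Jhbp5 (CG10407, FBgn0038395, 3R, 11870469 to 11871693), of the juvenile hormone binding protein family, had 440.3, 547 and 518 FPKM at stage 10, against 35.8, 38.7 and 26.8 FPKM at stage 8. It overlaps the related gene Jhbp4 (CG10264), which had 3.21 to 5.82 FPKM at stage 10, against 0.321 to 0.873 FPKM at stage 8. The odorant binding protein gene Obp19c (FBgn0031111, X, 20288948 to 20289991) had 512, 465 and 502 FPKM at stage 10, against 36.3, 36.5 and 23.4 FPKM at stage 8, and changed by 3.93 ± 0.18 SE (adjusted p = 3.02e-06). At this level Obp19c and Jhbp5 stood far above the other non-eggshell members of the list that rose at least 2-fold. Another odorant binding protein gene, Obp44a, went the other way, with 2.81, 4.03 and 2.64 FPKM at stage 10, against 6.2, 11.2 and 10.3 FPKM at stage 8. Its change was −1.27 ± 0.21 SE (adjusted p = 0.000911), and it overlaps Pabp2.
Nep2 (FBgn0027570, 3R, 545180 to 557600), a neprilysin that cleaves peptides outside the cell, had 64.8, 74 and 70.7 FPKM at stage 10, against 5.9, 5.2 and 2.87 FPKM at stage 8, a change of 3.69 ± 0.21 SE. sona (CG9850, FBgn0034903, 2R, 19641237 to 19685915), a secreted ADAMTS metalloprotease, had 38.7, 44.6 and 41.5 FPKM at stage 10, against 3.25, 3.44 and 1.79 FPKM at stage 8, a change of 3.50 ± 0.20 SE. Mmp2, a matrix metalloprotease, had 6.78, 5.04 and 7.64 FPKM at stage 10, against 1.1, 0.638 and 0.644 FPKM at stage 8. All 3 of these peptidases were low in every stage 8 library, and sona overlaps CG15800. The lysosomal proteases cathD and CtsL1 (Cp1) were abundant at both stages and rose by 0.79 and 0.81.

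Basement membrane genes of the same list fell. Of 9 tested components, grouped after their values were seen, all 9 held as lower under every scaling, with a median change of −0.91. Col4a1 (Cg25C) and vkg encode the collagen IV chains. Col4a1 had 59.9, 43.6 and 49.6 FPKM at stage 10, against 114, 99.9 and 108 FPKM at stage 8, and vkg had 53.8, 37.9 and 44 FPKM at stage 10, against 90.1, 77 and 88.7 FPKM at stage 8. SPARC (BM-40-SPARC, FBgn0026562, 3R, 22694960 to 22697738), a collagen binding protein, had 15.1, 11.6 and 12.4 FPKM at stage 10, against 37.6, 31.1 and 33.3 FPKM at stage 8. The laminin gene LanB1 (−1.10) and the perlecan gene trol (−0.96) fell by similar amounts, and in each gene stage 10 replicate 1 was the highest of its stage. Plod, the lysyl hydroxylase that modifies collagen and 1 of the 25 leading falls, had 36.1, 28 and 32.3 FPKM at stage 10, against 83.8, 81.3 and 85.9 FPKM at stage 8, in the same order of libraries.

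Among ligands, Sema2b (Sema-2b), a secreted semaphorin, was near absent at stage 8. It had 3.71, 4.51 and 4.33 FPKM at stage 10, against 0.225, 0.326 and 0.307 FPKM at stage 8, a change of 2.01 ± 0.13 SE. spz, whose product is the Toll ligand used later for the embryo's dorsoventral axis, had 41, 44.4 and 39.1 FPKM at stage 10, against 21.1, 23.1 and 18.9 FPKM at stage 8. magu, a modulator of BMP signalling, and myo, an activin-type ligand, rose by 0.96 and 0.57. These 4 held under every scaling.
Falls included grk, the TGF-alpha-like signal from oocyte to follicle cells, which had 11.4, 12.8 and 10.8 FPKM at stage 10, against 23, 24 and 25.1 FPKM at stage 8, a change of −0.99 ± 0.07 SE (adjusted p = 1.56e-05). S, the Star gene, which helps the export of such ligands, fell by 0.51 on the log2 scale. Ilp6, an insulin-like peptide gene, had 2.91, 2.63 and 2.83 FPKM at stage 10, against 8.78, 12.8 and 7.58 FPKM at stage 8, and it overlaps phl. The FGF gene pyr fell by 0.90. Each was lower in every stage 10 library.

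Receptors were balanced, with 14 of 40 tested genes higher and 13 lower as deposited, and 11 (27.5%) and 10 (25%) under every scaling. N, the Notch receptor, had 9.33, 9.68 and 9.12 FPKM at stage 10, against 16.9, 17.9 and 16.5 FPKM at stage 8, a change of −0.80 ± 0.06 SE. Its ligand Dl (Delta) fell by 0.43 ± 0.05 SE on the log2 scale and the BMP receptor tkv by 0.41 ± 0.06 SE. In the other direction Eph, the ephrin receptor, had 39.8, 45.9 and 44.6 FPKM at stage 10, against 22.7, 21.8 and 22.2 FPKM at stage 8. The receptor phosphatase Ptp69D changed by 0.95 ± 0.07 SE, and the Wnt receptors fz3 and fz4 rose by 1.09 and 0.57 while fz2 fell by 0.43. Members of 1 receptor family thus moved in both directions.

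Of 38 tested adhesion genes, 20 (52.6%) were higher and 9 (23.7%) lower as deposited, against 49.2% and 18.9% of all tested genes. Under every scaling 19 (50%) and 7 (18.4%) held, and the median change was 0.43. Lac (FBgn0010238, 2R, 8340696 to 8353154), an immunoglobulin protein of the septate junction, the barrier between epithelial cells, had 44.6, 46 and 43.1 FPKM at stage 10, against 16, 11.7 and 13 FPKM at stage 8. Its change was 1.65 ± 0.11 SE (adjusted p = 9.05e-06). Fas3, another septate junction protein and 1 of the follicle cell markers, had 19.4, 17.2 and 20 FPKM at stage 10, against 6.79, 6.37 and 6.75 FPKM at stage 8. Of 8 septate junction genes in the list, grouped after their values were seen, 7 rose under every scaling. The remaining gene, sinu, had a change of 0.24 (adjusted p = 0.0583).
The integrin subunit gene if had 4.89, 5.03 and 4.61 FPKM at stage 10, against 1.17, 0.704 and 0.917 FPKM at stage 8. The subunit gene scb had 22.3, 21.4 and 25 FPKM at stage 10, against 6.73, 6.85 and 3.45 FPKM at stage 8, and mew had 9.74, 9.34 and 8.74 FPKM at stage 10, against 9.9, 9.65 and 7.87 FPKM at stage 8. The alpha subunits therefore changed unequally, with if and scb apart between stages and mew overlapping. plum (CG6490), an immunoglobulin protein known from axon pruning, fell to 3.27, 2.95 and 3.14 FPKM at stage 10, against 11.2, 14.2 and 11.8 FPKM at stage 8.

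**Figure D4:**
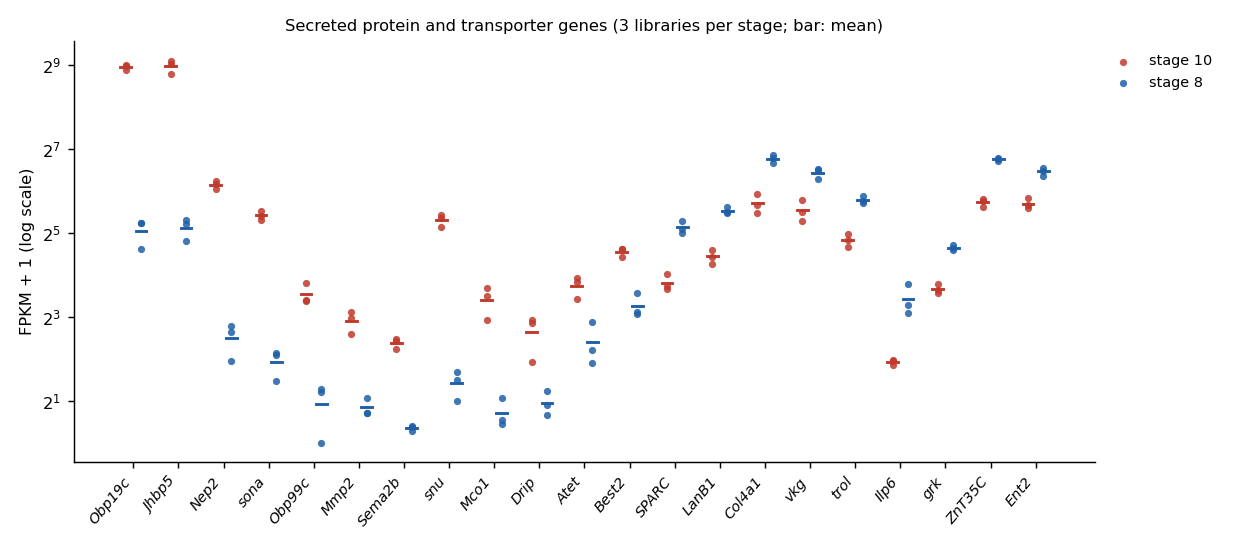
FPKM + 1 on a log scale for named genes of secreted proteins and transporters, with 1 point per library, 3 libraries per stage and a bar at the mean, stage 10 in red to the left of stage 8 in blue. Jhbp5 and Obp19c lie highest at stage 10, at 440.3 to 547 FPKM, and the genes from SPARC to Ent2 were lower in every stage 10 library.

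Counts for transporters and pumps lay near those of all tested genes. Of 108 tested, 55 rose and 19 fell as deposited (50.9% and 17.6%), and 29 (26.9%) and 14 (13%) held under every scaling. Their share of protein-coding FPKM was 0.846% ± 0.0136 at stage 10 and 0.872% ± 0.0104 at stage 8 (exact permutation p = 0.2, two-sided, n = 3 each). The difference of −0.0258 percentage points turned to 0.0775 as a share of all listed genes (exact permutation p = 0.1), so the data do not fix its direction.

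snu (CG9990, FBgn0039594, 3R, 24501077 to 24521661), an ABC transporter needed for the lipid barrier of the cuticle, showed the largest rise. It had 34.1, 41.8 and 39.9 FPKM at stage 10, against 1.84, 2.21 and 1.01 FPKM at stage 8, a change of 3.90 ± 0.19 SE (adjusted p = 3.56e-06). Mco1 (CG3759, FBgn0032116, 2L, 9416593 to 9426342), a multicopper oxidase of iron handling, had 10.2, 6.65 and 11.8 FPKM at stage 10, against 1.09, 0.376 and 0.453 FPKM at stage 8. Drip, a water channel, had 6.64, 2.82 and 6.18 FPKM at stage 10, against 1.34, 0.862 and 0.582 FPKM at stage 8, and it overlaps CG7763. For Mco1 and Drip stage 10 replicate 2 was the lowest of its stage, still above every stage 8 library.
Ncc69, a cation-chloride cotransporter, had 27.4, 27.4 and 24.5 FPKM at stage 10, against 14.7, 11.3 and 12 FPKM at stage 8. The sodium pump beta subunit genes nrv1 and nrv2 rose by 0.81 ± 0.05 SE and 1.05 ± 0.08 SE. The alpha subunit gene Atpalpha changed by 0.24 as deposited, a call that did not hold under every scaling. The calcium sensor gene Stim and the channel gene Orai (olf186-F), which act together when internal calcium stores empty, rose by 0.57 and 0.52.
Falls were led by ZnT35C, a zinc transporter gene with 52.7, 54.9 and 48.2 FPKM at stage 10, against 109, 104 and 107 FPKM at stage 8, a change of −1.03 ± 0.06 SE (adjusted p = 7.18e-06). The nucleoside transporter gene Ent2 had 55.4, 46.8 and 49.3 FPKM at stage 10, against 87.6, 81.1 and 92.7 FPKM at stage 8. Ndae1, a sodium-dependent anion exchanger gene, had 2.98, 4.06 and 2.99 FPKM at stage 10, against 7.47, 6.1 and 5.58 FPKM at stage 8, a change of −0.77 ± 0.16 SE. All 3 fell by more than the spread within a stage, so ion transporter genes moved in both directions.

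The maternal load list, genes whose products the egg needs, held 113 tested members. As deposited 78 rose and 15 fell (69% and 13.3%), and under every scaling 46 (40.7%) and 7 (6.19%) did so. The list's share of protein-coding FPKM was 3.3% ± 0.127 at stage 10 and 3.02% ± 0.0687 at stage 8, without overlap, at the smallest exact permutation p of 0.1. As deposited 8 of the 113 rose at least 2-fold, near the share of all tested genes (598 of 8340, 7.17%). The 7 falls included well-studied germline regulators.

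Several of the rises were of meiosis genes, while c(3)G, given below, fell. twe (FBgn0002673, 2L, 16259414 to 16261877), the germline Cdc25 phosphatase for meiotic entry, had 44.8, 47.4 and 45.9 FPKM at stage 10, against 17.1, 16.2 and 15.3 FPKM at stage 8, a change of 1.45 ± 0.07 SE (adjusted p = 4.62e-06). cort, a female meiosis activator of the anaphase-promoting complex, had 41.3, 49.8 and 44.2 FPKM at stage 10, against 21.2, 22.1 and 20.3 FPKM at stage 8. mtrm, which restrains Polo kinase in the oocyte, had 353, 389 and 395 FPKM at stage 10, against 194, 198 and 185 FPKM at stage 8. All 3 were close to or above 2-fold, with little spread in either stage. mei-38 and sub, spindle genes of female meiosis, rose by 1.49 and 1.14, and cid, the centromeric histone, rose by 1.24. plu, a subunit of the PAN GU kinase that starts the embryo's cycles, rose by 0.77.
Messages that act in the early embryo moved with them. The patterning gene hb had 34.2, 40.9 and 31.8 FPKM at stage 10, against 18, 17.9 and 17 FPKM at stage 8, and bcd had 40.3, 43.1 and 41.8 FPKM at stage 10, against 23, 26.2 and 25.4 FPKM at stage 8. exu, which localizes bcd RNA, had 404, 429 and 388 FPKM at stage 10, against 228, 191 and 216 FPKM at stage 8. nos, the posterior determinant, and pgc, which silences transcription in germ cells, rose by 0.94 and 0.69. dhd, a maternal thioredoxin, was among the most abundant of the list with 2990.4, 2987 and 2850.3 FPKM at stage 10, against 2005, 2117 and 1969 FPKM at stage 8. In each gene every stage 10 library lay above every stage 8 library.

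The 7 falls were orb, pAbp, osk, aub, c(3)G, lost and piwi. orb (FBgn0004882, 3R, 19090364 to 19106571), a CPEB translational regulator, had 132, 144 and 124 FPKM at stage 10, against 276, 298 and 314 FPKM at stage 8, a change of −1.14 ± 0.07 SE (adjusted p = 6.59e-06). osk, which assembles the pole plasm and whose translation orb supports, had 567, 604 and 598 FPKM at stage 10, against 898, 984 and 1006 FPKM at stage 8. pAbp, the poly(A)-binding protein gene, had 783, 772 and 797 FPKM at stage 10, against 1157, 1375 and 1313 FPKM at stage 8. The changes of osk and pAbp were both −0.70. The piRNA pathway genes aub and piwi fell by 0.68 and 0.38, and c(3)G, of the synaptonemal complex, fell by 0.67. The 2 posterior determinants osk and nos thus moved in opposite directions, with no overlap of stages in either.

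**Figure D5:**
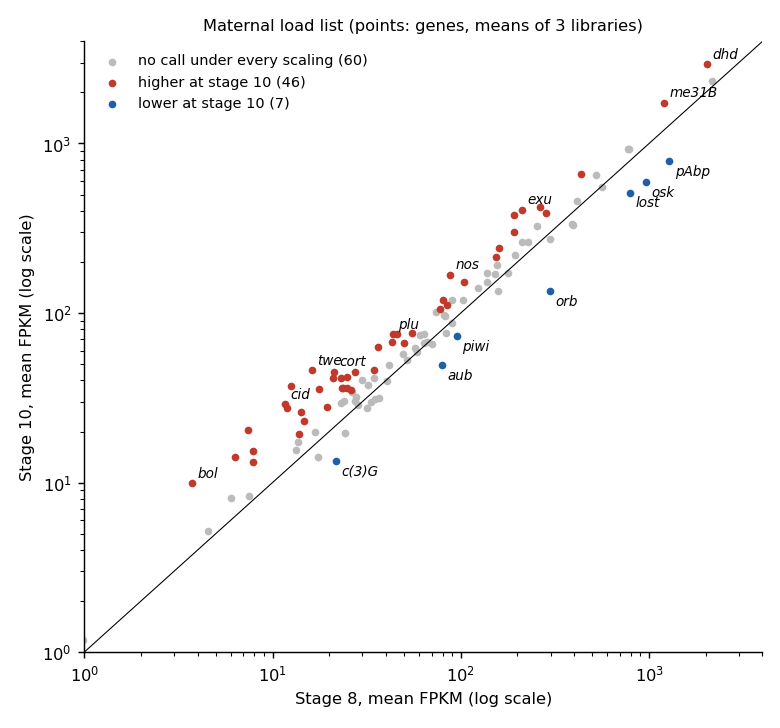
Mean FPKM at stage 10 (vertical, log scale) against mean FPKM at stage 8 (horizontal, log scale) for tested genes of the maternal load list, each point the mean of 3 libraries per stage. The 46 red genes held as higher at stage 10 under every scaling and lie above the line of equality, and the 7 blue genes, from c(3)G to pAbp, lie below it.

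Of 83 tested chromatin regulators, 52 rose and 12 fell as deposited, and 37 (44.6%) and 5 (6.02%) held under every scaling. SMC2 (FBgn0027783, 2R, 10736126 to 10740155), of the condensin complex that compacts chromosomes, had 29.8, 31.8 and 30.8 FPKM at stage 10, against 13.8, 11.8 and 10.7 FPKM at stage 8. The condensin genes barr and glu rose by 1.28 and 1.12 and Cap-G by 0.57. vtd, the kleisin of cohesin, had 84.6, 87.9 and 97 FPKM at stage 10, against 43, 39.6 and 40.1 FPKM at stage 8. These complexes had no overlapping stages in the genes named. Su(var)3-9, a histone H3 methyltransferase of heterochromatin, fell to 6.44, 7.48 and 6.03 FPKM at stage 10, against 11.5, 11.9 and 13.1 FPKM at stage 8, and it shares its locus with eIF-2gamma.
Of nuclear pore and import genes, 15 of 50 (30%) were higher and 3 (6%) lower under every scaling, the first a share near that of all tested genes. The importin-beta family genes Karybeta3 and msk fell by 0.72 and 0.51, and Cse1 (Cas), the export receptor that returns importin alpha to the cytoplasm, rose by 0.65. Karybeta3 had 217, 214 and 202 FPKM at stage 10, against 335, 355 and 355 FPKM at stage 8.

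Some genes crossed from below 1 FPKM in every library of a stage to at least 2 FPKM in every library of the other. Of protein-coding genes, 38 did so towards stage 10 and 13 away from it, a description, since this choice fixes the difference between the stages. Among the 38, the median mean level at stage 10 was 4.05 FPKM and the highest was 21.6, so most were low. Of the 38, 31 carry only a CG number, against 47.3% of all tested protein-coding genes. alpha-Est8, an esterase gene, had 8.07, 8.17 and 8.42 FPKM at stage 10, against 0.535, 0.554 and 0.144 FPKM at stage 8. Nepl21 (CG14526), a neprilysin-like gene, had 7.21, 5.03 and 7.77 FPKM at stage 10, against 0.952, 0.55 and 0.672 FPKM at stage 8. It overlaps CG33203, and 11 of the 38 overlap another listed gene. Cpr30B, a cuticle protein gene, had 3.66, 4 and 6 FPKM at stage 10, against 0, 0 and 0.134 FPKM at stage 8. The count for stage 10 was 72 without stage 8 replicate 1, and that for stage 8 was 20 without stage 8 replicate 3.
Of the 13 genes seen only at stage 8 by this measure, 7 overlap another listed gene. inaD had 0.923, 0.603 and 0.427 FPKM at stage 10, against 3.67, 3.47 and 4.06 FPKM at stage 8, and it overlaps RpL23, which averaged 2948 ± 173 FPKM at stage 10 and 3580.1 ± 87.3 FPKM at stage 8. Without an overlap, bdl (CG16857), an immunoglobulin adhesion gene known from the eye, had 0.445, 0.353 and 0.461 FPKM at stage 10, against 2.41, 3.03 and 2.23 FPKM at stage 8. The receptor tyrosine kinase gene sev had 0.948, 0.704 and 0.803 FPKM at stage 10, against 2.84, 3.32 and 2.17 FPKM at stage 8.

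Genes that rose often lay next to each other. Histone copies and the eggshell list were left out, as were pairs with overlapping intervals, a restriction chosen after the data were seen. The nearest tested protein-coding neighbour then also rose at least 2-fold for 73 of 371 risers (19.7%), against 327 of all 5485 genes with such a neighbour (5.96%). For falls the shares were 5 of 79 (6.33%) and 69 of 5485 (1.26%). Neighbours are not independent of each other, and no test is given.
One stretch on 3L (6213678 to 6479064 in dm3) held 6 neighbouring tested genes that rose at least 2-fold: pncr008:3L, CG13299, BG642312, the chloride channel gene Best2, CG10163 and CG42747. CG13299 had 443, 269 and 415 FPKM at stage 10, against 61, 34.6 and 27.6 FPKM at stage 8. Best2 had 23.4, 20.5 and 23.5 FPKM at stage 10, against 10.9, 7.39 and 7.6 FPKM at stage 8. Levels within the stretch therefore differed widely between genes that rose together.
Another stretch, on 2L (1359983 to 1500760), held NLaz, a lipocalin gene, with CG31928, CG31926, CG31661 and CG18131. CG31661 had 90.3, 62 and 114 FPKM at stage 10, against 6.92, 3.73 and 2.55 FPKM at stage 8, a change of 4.09 ± 0.39 SE. NLaz had 25.9, 33.4 and 25.9 FPKM at stage 10, against 6.24, 5.34 and 1.36 FPKM at stage 8. On 3R the GATA factor gene srp and the genes Jhbp4 and Jhbp5 lay next to each other and all rose at least 2-fold, between 11811923 and 11871693. Jhbp4 and Jhbp5 overlap, so this is not a run of separate intervals.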

How the data were processed

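Poly(A) RNA of staged follicles was sequenced in 9 libraries, and the 6 wild-type ones are compared here. The deposited values are gene-level FPKM from Cufflinks, with confidence limits and a status per gene, per the file headers. Reads were handled with Cufflinks 2.02, TopHat2 2.0.7, Bowtie2 2.0.6 and CASAVA 1.8.2 on build dm3, per the submitters' processing notes. No strand setting or annotation release is given in the sources used.

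The files list 15602 genes, of which 14926 matched a newer reference annotation used for names, gene types and transcript structure. Positions are those of the files, counted from 1. 21 genes with a failed estimate listed at 0 in a library were left out, a rule added after the files were seen. Fragment totals implied by the confidence limits gave near-whole counts (within 0.02, under 50) for 56.6% to 60.6% of genes, so counts were not recovered and no count test was run.

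Genes that reached 1 FPKM in 3 or more of the 9 libraries were fitted as log2(FPKM + 1) in limma 3.58.1 (R 4.3.3). The fit had 1 mean per group, an intensity trend and 6 residual degrees of freedom. The fit was tested on simulated data. The 4 rescalings were median-of-ratios, quantile normalization, the protein-coding sum, and the sum outside eggshell and yolk genes. Class shares were compared by two-sided exact permutation. Other steps used Python 3.11.15, numpy 2.4.6, pandas 2.3.3 and matplotlib 3.10.9.

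Genes are named by a rule. It takes the 25 largest rises and 25 largest falls among protein-coding genes outside the eggshell list that held under every scaling, with separate groups and 5 FPKM or more on average in the higher stage. It adds the 5 largest rises and 5 largest falls of each list with a mean of at least 3 FPKM, genes that crossed between under 1 and at least 2 FPKM, and runs of neighbours. Other genes named were chosen after their values were seen. The comparison, the rule and the lists were chosen with earlier results of these data known. Alternatives tried were the pseudocount, the filter, the scaling, the wild-type libraries alone, each library left out and a replicate block.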

Additional observations from a re-analysis of the deposited data

How the results depend on the processing

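The number of genes called depended on the scaling, and that past 2-fold also on the pseudocount. Genes higher at stage 10 numbered 2609 after median-of-ratios scaling and 2626 after quantile normalization, against 4105 as deposited. Genes lower at stage 10 numbered 2668 and 2537 under these scalings and 993 when scaled outside eggshell and yolk genes, against 1577. Of rises of at least 2-fold there were 273 with a pseudocount of 5 and 370 with median-of-ratios scaling, against 598. Of falls of at least 2-fold there were 308 with a pseudocount of 0.1, 102 with a pseudocount of 5, 322 under median-of-ratios, 300 under quantile normalization and 126 outside eggshell and yolk genes, against 194. Leaving out each library in turn gave 3812 to 4043 higher and 1367 to 1499 lower genes. The difference in transcription factor share ran from −0.00279, without stage 10 replicate 2, to 0.0261, without stage 8 replicate 2, on leaving out a library. As shares of all listed genes the differences were 0.0876 for transcription factors, against 0.0131 of protein-coding FPKM, 0.0775 for transporters, against −0.0258, and 0.561 for maternal load, against 0.28. The causes were not tested. For the 141 genes that the naming rule chose, which had to hold under every rescaling, 2242 of 2245 alternative values kept the call and none reversed. The 3 lost were of apolpp, at adjusted p of 0.0527 without the filter, 0.0559 without stage 10 replicate 3 and 0.0508 without stage 8 replicate 2. Genes named outside the rule, such as Met, Atpalpha and RpL23, are not among the 141 and lost their calls under a rescaling.

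Same-numbered libraries of the stages did not deviate together, with correlations of 0.0239, 0.0594 and 0.0334, and no stage 10 library correlated best with its own number. The replicate block gave 4029 higher and 1521 lower genes, with 599 and 193 past 2-fold. Classes defined from protein sequence were not run. The implied 17.5 to 21.7 M fragments limit genes near 1 FPKM most.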
